A study of Mus musculus with 16 samples.

Results

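Rab GTPases are small membrane switches that direct vesicle traffic. In this series they were taken as all genes named by exactly 1 symbol of the form Rab plus a number, with at most 1 letter from a to d and 1 further digit. The rule gave 55 Rab genes with 697 probe sets, of 21634 gene symbols and 625534 probe sets in all. It used names only and no measured value. Of the 55, 50 had a measurable gene level, of 14570 genes in all. Rab19, Rab20, Rab25, Rab32 and Rab38 had only 1 or 2 probe sets above the floor on dim signal and were not tested. Of the 55 symbols, 53 are current in RefSeq's mouse gene table, Rab6 is an older symbol of Rab6a, and Rab1 matched no single gene.

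RNA of 4 groups was measured on exon arrays, with 4 arrays each: Nova1/2 double knockout (dKO) brain, wild type (WT) brain, dKO spinal cord and WT spinal cord. All were from CD1 mice, an outbred stock, at E18.5, late in gestation, and the design text gives each array its own biological replicate. Nova1 and Nova2 bind RNA in neurons and control which exons are spliced in, and the comparison asks what changes when both are absent. How the knockout alleles were built is not described in these sources, and the deletion is not stated to be limited to any cell type.

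A Rab protein is active when bound to GTP and then recruits effectors that move, tether or fuse a vesicle. Exchange factors (GEFs) load GTP, GTPase-activating proteins (GAPs) end the active state, and an escort protein with a prenyl transferase gives each Rab its lipid anchor. Each Rab marks a compartment, such as synaptic vesicles for Rab3a, early endosomes for Rab5 or late endosomes for Rab7. Neurons use Rab3 and Rab27 proteins in transmitter and peptide release, and Rab11 and Rab15 in receptor recycling.

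A gene's level is the median over its probe sets of log2(intensity + 16), the floor is a log2 value of 6.73, and a gene is called higher or lower where limma's Benjamini-Hochberg adjusted p over all genes is under 0.05. Median intensities were 72.3 to 82.9 on the brain arrays and 99.5 to 116.2 on the cord arrays. The log2 change of Nova1 was -5.03 in brain (adjusted p = 2.44e-13) and -5.31 in cord (adjusted p = 8.94e-14), and that of Nova2 was -0.75 in brain and -1.14 in cord, with dKO and WT arrays separated for both genes in both tissues. By the arrays' X- and Y-linked signals, dKO brain held 4 females, WT brain 2 females and 2 males, dKO cord 3 females and 1 male, and WT cord 2 females and 2 males. In the cord, mean log2 levels of some marker lists (scores) moved with genotype. The astrocyte score was 9.53 to 9.85 in dKO cord against 9.92 to 10.41 in WT cord, and the oligodendrocyte lineage score was 8.16 to 8.30 in dKO cord against 8.47 to 8.80 in WT cord. The microglia and macrophage score was 7.42 to 7.71 in dKO cord against 7.83 to 8.30 in WT cord, and the erythroid score was 7.64 to 7.83 in dKO cord against 8.06 to 8.24 in WT cord. Called lower in dKO cord were 5 of 7 astrocyte, 3 of 6 oligodendrocyte, 4 of 9 microglia and 1 of 3 erythroid markers tested, and no tested member of these lists averaged below the floor in any group. The markers Slc1a3, Mog, Hba-a1 and Hbb-b1 were not tested. The neuron score was 11.06 to 11.30 in dKO cord against 11.10 to 11.33 in WT cord, and 0 of 8 neuron markers were called. Skeletal muscle scores varied within both cord groups, from 7.41 to 9.41 in dKO cord and from 7.61 to 9.94 in WT cord. Fibroblast and meninges scores were 8.13 to 9.37 in dKO cord against 8.32 to 8.77 in WT cord, and 0 of 7 markers were called. No marker of any of these lists was called between dKO and WT brain.

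Rab12 was the only Rab gene called in both tissues, and the RefSeq window around its start is shown because 7 of its 8 probe sets above the floor were lower in dKO, with separated groups. Rab12 acts at recycling and late endosomes, where it steers the transferrin receptor toward lysosomal breakdown. The window of Rab12 covers chr17:66519621-66519920 on the minus strand of GRCm38.p6, from 250 bases before the start to 50 bases after it. The first of the 4 windows listed for Rab15, a second gene called in cord, covers chr12:76822475-76822774 on the minus strand. No window is shown for Rab27b, which was also called in cord. Capitals mark each GC box, GGGCGG or its other-strand form CCGCCC.
Rab12: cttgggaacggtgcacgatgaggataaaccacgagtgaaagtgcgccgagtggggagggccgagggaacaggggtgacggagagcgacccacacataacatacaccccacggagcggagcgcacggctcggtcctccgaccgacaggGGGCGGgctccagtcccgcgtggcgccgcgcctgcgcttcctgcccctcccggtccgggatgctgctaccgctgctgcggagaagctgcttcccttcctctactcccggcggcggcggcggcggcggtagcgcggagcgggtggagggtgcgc
Rab15: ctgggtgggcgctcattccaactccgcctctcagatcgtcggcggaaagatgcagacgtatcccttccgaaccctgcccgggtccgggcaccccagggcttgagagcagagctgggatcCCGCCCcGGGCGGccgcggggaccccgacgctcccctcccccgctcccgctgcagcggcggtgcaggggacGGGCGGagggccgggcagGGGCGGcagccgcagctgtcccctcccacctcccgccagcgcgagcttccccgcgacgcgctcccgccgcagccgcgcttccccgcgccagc
The Rab12 window had a GC content of 70.7% and 1 GC box, and the Rab15 window shown had 76.3% and 4 GC boxes. The other Rab15 windows were less rich, at 56.7%, 52.7% and 47.3%, with 0, 1 and 0 GC boxes. Over all 32851 windows of this length the median GC content was 52.7%, and 35.7% held at least 1 GC box. Neither window shown held CCAAT (either strand, in 37.4% of all windows), TATAAA (13.6%), CACGTG (7.15%) or TGACGTCA (1.79%). These matches describe letters only.

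Rab12 fell in dKO tissue of both kinds. Its level was 9.90, 9.85, 9.79 and 9.81 on the dKO brain arrays, against 10.76, 10.67, 10.31 and 10.73 on the WT brain arrays. In spinal cord it was 9.22, 9.40, 8.996 and 9.30 on the dKO arrays, against 10.45, 10.21, 10.13 and 10.12 on the WT arrays. Every dKO array lay below every WT array of its tissue, and WT brain 3 was the lowest of the WT brain arrays. The change was -0.78 in brain (1.72-fold lower, SE 0.115, limma adjusted p = 0.00162, n = 4 per group) and -0.997 in cord (2.00-fold lower, SE 0.115, limma adjusted p = 2.90e-05). The change in cord minus that in brain was not called (-0.22, SE 0.162, adjusted p = 0.787). In bulk tissue, fewer cells of a type and less RNA per cell cannot be told apart. Rab12 was called in all 28 alternative settings in each tissue, with changes of -1.08 to -0.73 in brain and -1.20 to -0.92 in cord. Settings that leave out only arrays of the other tissue keep the change itself and alter only the shared estimate of the spread. With a term for sex Rab12 changed by -0.74 in brain (adjusted p = 0.0109). Without the 4 cord arrays richest in muscle genes, WT cord 1 and 4 and dKO cord 2 and 4, it changed by -1.06 in cord (adjusted p = 0.00522). That fit compares dKO cord 1 and 3 with WT cord 2 and 3 alone. Of the arrays left out, dKO cord 2 and 4 also had the highest fibroblast and meninges scores in cord (9.37 and 9.23). For a call lost in that setting, less muscle, less fibroblast and meninges signal and fewer arrays cannot be told apart.

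**Figure D1:**
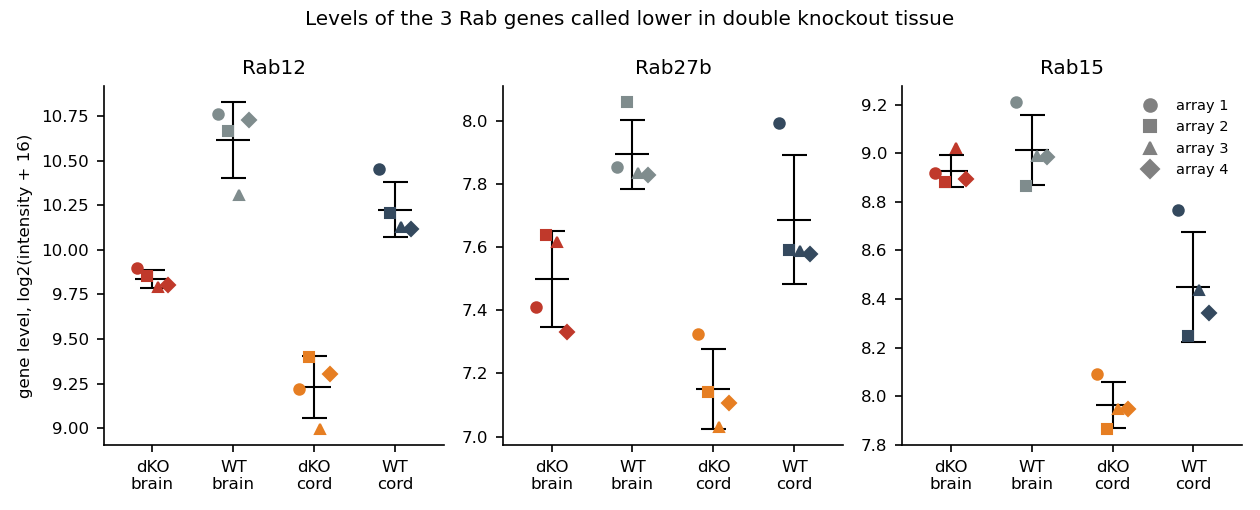
Gene levels, as log2(intensity + 16), of Rab12, Rab27b and Rab15 on each of the 4 arrays of dKO brain, WT brain, dKO cord and WT cord, with marker shapes for array numbers and bars for the mean and SD. Rab12 is separated in both tissues, with dKO cord at 8.996 to 9.40 against WT cord at 10.12 to 10.45, while Rab15 overlaps between genotypes in brain.

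The probe sets of Rab12 did not all move alike. Of its 8 probe sets above the floor, 7 were lower in dKO with the groups separated, with log2 changes of -1.36 to -0.89 in brain and of -1.45 to -0.95 in cord. The exception, probe set 4852460, changed by 0.10 in brain and by 0.05 in cord, with overlapping groups. Relative to its gene, given as the exon index (log2 of the probe set minus the gene level on the same array), this probe set stood at 0.40, 0.51, 0.61 and 0.67 on the dKO brain arrays, against -0.45, -0.51, 0.06 and -0.45 on the WT brain arrays. In cord its exon index was 1.15, 0.75, 1.30 and 0.64 on the dKO arrays, against -0.34, -0.19, -0.13 and 0.30 on the WT arrays. The groups were separated in both tissues. The exon index rose by 1.05 in cord (SE 0.168, limma adjusted p = 0.0102), and the change of 0.88 in brain missed the threshold (adjusted p = 0.0522). With the cord arrays fitted alone the cord call ended (adjusted p = 0.113). Since the probe set itself hardly moved, the exon index follows the lower level of the other 7. As probe set 4852460 is one of the 8 values behind the median, the gene-level change in brain is smaller in size than that of each of the 7, and in cord than that of 6 of them. The mean over probe sets changed by -0.98 in brain and -1.06 in cord. Positions of probe sets in the gene were not used here, so it is not placed in an exon.

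**Figure D2:**
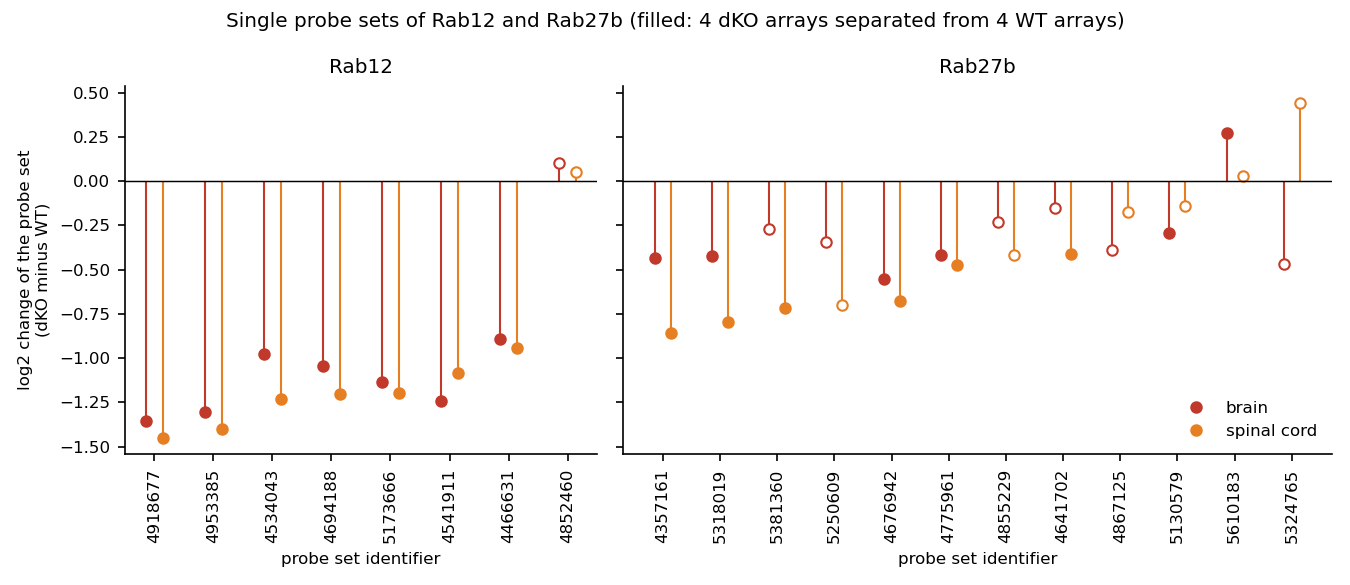
Change of each probe set above the floor of Rab12 and Rab27b, as dKO minus WT in log2 units, in brain and in spinal cord; filled points mark probe sets whose 4 dKO arrays lie wholly apart from the 4 WT arrays. For Rab12, 7 of 8 probe sets lie at -0.89 or below in both tissues and 4852460 lies near 0.

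In dKO brain, Rab12 was the only one of the 50 Rab genes called (0.268% of all genes were called, and 0.192% were called lower). The other 49 changed by -0.39 to 0.33, 47 of them by less than 0.3 in size, and the median over the Rab genes was -0.01 against 0.02 over all genes. Groups were separated for 4 Rab genes, Rab12, Rab27b, Rab37 and Rab6, all lower in dKO, where 4% of all genes were separated and 1.83% were separated and lower. In dKO cord, 3 of the 50 were called, all lower: Rab12, Rab27b and Rab15, where 5.63% of all genes were called, 4.55% lower and 1.08% higher. The share of Rab genes called in cord was thus near that of all genes. The median over the Rab genes was -0.09 against -0.03 over all genes, and 11 of 50 Rab genes had an unadjusted p under 0.05, where 19.5% of all genes did. Groups were separated for 6 Rab genes in cord, against 11.5% of all genes (7.62% lower and 3.9% higher): Rab12, Rab15, Rab27a, Rab27b and Rab6b were lower in dKO, and Rab24 was higher. No Rab gene was called in the test of the difference between tissues (0% of all genes), and 2 had an unadjusted p under 0.05 (8% of all genes), Rab15 and Rab4a.

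**Figure D3:**
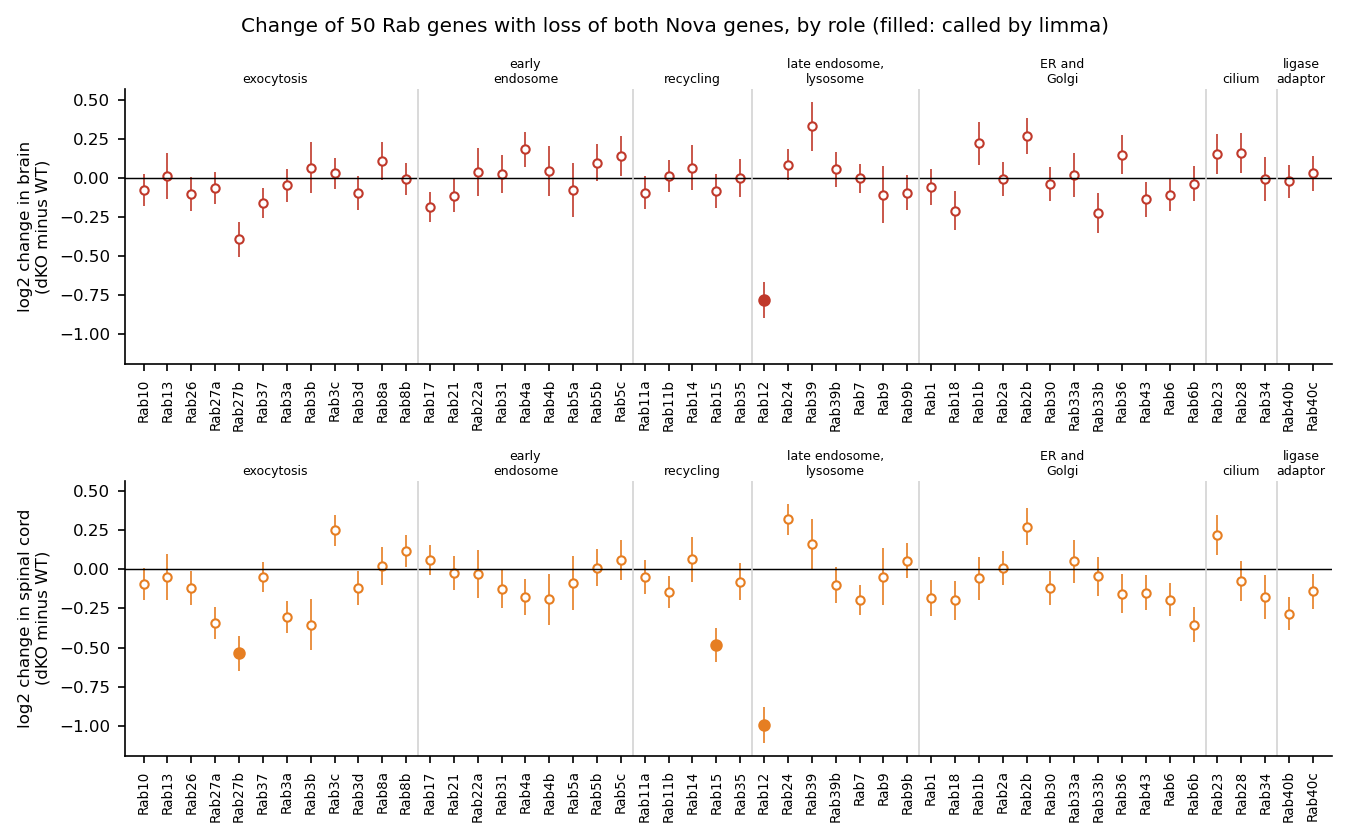
Change of the 50 Rab genes, as dKO minus WT in log2 units with the standard error, in brain (top) and spinal cord (bottom), ordered by the compartment each serves; filled points are called by limma. Rab12 stands lowest in both tissues at -0.78 and -0.997, and Rab27b and Rab15 are the other filled points in cord.

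Among the 12 Rab genes of secretory and synaptic vesicle exocytosis, 1 was called in cord, Rab27b, and none in brain. Rab27b, which docks secretory granules and synaptic vesicles, had levels of 7.33, 7.14, 7.03 and 7.11 on the dKO cord arrays, against 7.99, 7.59, 7.59 and 7.58 on the WT cord arrays. WT cord 1 stood above the other WT arrays, as did its median level over all genes (8.47 against 8.22 to 8.33), and the groups did not overlap. The change in cord was -0.54 (1.45-fold lower, SE 0.112, limma adjusted p = 0.00700). In brain the levels were 7.41, 7.64, 7.62 and 7.33 on the dKO arrays, against 7.85, 8.06, 7.83 and 7.83 on the WT arrays. Those groups did not overlap either, but the change of -0.39 was not called (adjusted p = 0.266). A floor raised to the 75th percentile ended the cord call (-0.19, adjusted p = 0.424), and so did leaving out the 4 cord arrays richest in muscle genes (-0.41, adjusted p = 0.237). The latter fit also had fewer arrays. Levels of Rab27b ran from 7.03 to 8.06 over the 16 arrays, near the floor of 6.73, where the added 16 understates a change. The glial and microglial markers listed above moved with genotype in the same cord arrays, and their part in the result was not tested.

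Single probe sets of Rab27b also differed. Of 12 above the floor, 11 were lower in dKO brain and 10 in dKO cord, 5 and 6 of them with separated groups. Probe set 5610183 was higher in dKO brain by 0.27, with separated groups, and changed by 0.03 in cord. Its exon index was 0.64, 0.55, 0.79 and 0.84 on the dKO brain arrays, against 0.13, -0.21, 0.15 and 0.08 on the WT brain arrays. The difference of 0.67 was separated but not called (adjusted p = 0.138). With the array number as a block, which pairs the brain arrays, it was called (adjusted p = 0.0267). In cord the exon index differed by 0.57 (adjusted p = 0.118), and by the block, which does not pair the cord arrays, it was called there too (adjusted p = 0.0446).

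The other exocytic Rabs were not called. Rab27a, the paralog that anchors granules and melanosomes, had levels of 7.51 to 7.73 in dKO cord against 7.77 to 8.20 in WT cord, with separated groups, and changed by -0.34 (adjusted p = 0.0560). In brain Rab27a changed by -0.06. Rab3a, the main Rab of synaptic vesicles, changed by -0.30 in cord (adjusted p = 0.0935) and by -0.05 in brain. Rab3b, its paralog, changed by -0.35 in cord (adjusted p = 0.230) and by 0.06 in brain. Rab3c, a further paralog, went the other way in cord, by 0.25 (unadjusted p = 0.020, limma adjusted p = 0.157). In brain Rab3c changed by 0.03. Of the 12 exocytic Rabs, 9 changed below 0 and 3 above 0 in cord, as did 8164 and 6406 of all 14570 genes. With the replicate block, Rab3a and Rab6b joined the 3 genes called in cord, although the array numbers did not pair the cord arrays.

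Of 5 recycling endosome Rabs, 1 was called, Rab15 in cord. Rab15, a neuron-enriched Rab of early and recycling endosomes, had levels of 8.09, 7.87, 7.95 and 7.95 on the dKO cord arrays, against 8.77, 8.25, 8.44 and 8.34 on the WT cord arrays. The cord groups did not overlap, with WT cord 1 again the highest. The change was -0.49 (1.40-fold lower, SE 0.109, limma adjusted p = 0.0117), and 13 of its 14 probe sets were lower, 4 with separated groups. On the brain arrays the levels were 8.92, 8.88, 9.02 and 8.89 in dKO against 9.21, 8.86, 8.99 and 8.98 in WT. The brain groups overlapped, and the change of -0.08 was not called (adjusted p = 1.00). The change in cord minus that in brain was -0.40 (unadjusted p = 0.0172), which failed the adjustment over all genes (adjusted p = 0.503). Without the 4 cord arrays richest in muscle genes, and so with fewer arrays, the cord change was -0.32 and no longer called (adjusted p = 0.321). It was called in the other 27 alternative settings. Rab11a, Rab11b and Rab14, Rabs of the recycling route and the Golgi, changed by -0.09 to 0.06 in brain and by -0.15 to 0.06 in cord.

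Among 7 Rabs of late endosomes, lysosomes and autophagosomes, Rab12 alone was called. Rab24, which takes part in autophagosome clearance, was 8.86 to 9.06 in dKO cord against 8.45 to 8.77 in WT cord. Those groups were separated, and the change of 0.32 was not called (adjusted p = 0.0691). Rab39 changed by 0.33 in brain (adjusted p = 0.939) and by 0.16 in cord, on 3 probe sets. Rab7, which controls the step from late endosome to lysosome, changed by -0.0042 in brain and by -0.19 in cord (adjusted p = 0.268).

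None of the 9 early endosome Rabs was called with genotype in either tissue. Rab4a, which returns receptors to the surface by a fast route, changed by 0.18 in brain and by -0.18 in cord. Rab4b changed by 0.04 in brain and -0.19 in cord, and Rab17, a Rab of dendritic and epithelial sorting, by -0.19 in brain and 0.06 in cord. None of the 12 Rabs of the endoplasmic reticulum and Golgi was called. Rab2b, of the early secretory route, changed by 0.27 in brain (unadjusted p = 0.0345, adjusted p = 0.889) and by 0.27 in cord (unadjusted p = 0.0307, adjusted p = 0.196). Rab18, of lipid droplets and the endoplasmic reticulum, changed by -0.21 in brain and -0.20 in cord. Rab6b, a Golgi Rab enriched in neurons, was 10.13 to 10.40 in dKO cord against 10.43 to 10.78 in WT cord. The Rab6b groups were separated, and the change of -0.35 was not called (adjusted p = 0.0687). Rab6, whose brain groups were separated at 11.28 to 11.41 in dKO against 11.43 to 11.53 in WT, changed by -0.11 there. The 3 ciliary Rabs, Rab23, Rab28 and Rab34, changed by -0.01 to 0.16 in brain and by -0.18 to 0.22 in cord. The ubiquitin ligase adaptors Rab40b and Rab40c changed by -0.02 and 0.03 in brain and by -0.28 and -0.14 in cord.

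The rest of the Rab cycle was read from lists of genes. No gene of any such list was called between dKO and WT brain: of 30 GEFs, 35 GAPs, 54 effectors, 9 genes of prenylation and membrane cycling and 6 Rab-like GTPases, 3, 0, 5, 0 and 1 had an unadjusted p under 0.05, as did 5.33% of all genes. In cord, 0 of 30 GEFs, 0 of 9 prenylation genes and 0 of 6 Rab-like genes were called, with 4, 0 and 1 at an unadjusted p under 0.05. Of the GAPs and effectors, 7 of 35 and 14 of 54 had such a p, where 19.5% of all genes did. Of the 35 GAPs, 1 fell, and of the 54 effectors, 4 fell, where 4.55% of all genes were called lower. The median change of the effectors in cord was -0.07 and that of the GAPs -0.10, against -0.03 over all genes.

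The effector Myrip, which links Rab27a to myosin and actin, was 7.76 to 8.04 in dKO cord against 8.49 to 8.82 in WT cord, a change of -0.71 (SE 0.113, limma adjusted p = 0.000854). In brain it changed by -0.29 (adjusted p = 0.781). Rph3a, rabphilin, which binds Rab3a and Rab27 on synaptic vesicles, fell by 0.37 in cord (adjusted p = 0.0330) and was 8.73 to 8.96 in dKO against 9.03 to 9.35 in WT. Ica1, a Rab2 effector of dense-core vesicles, changed by -0.51 in cord (adjusted p = 0.0319), and Rab11fip5, which binds Rab11, by -0.49 (adjusted p = 0.0190). Tbc1d24, a synaptic protein with the TBC domain found in Rab GAPs, fell by 0.38 in cord (adjusted p = 0.0175). All 5 genes had separated groups in cord, and the part of the glial and microglial marker shift of the same arrays was not tested. Without the 4 muscle-rich cord arrays all 5 calls ended, with changes of -0.54 to -0.38 (adjusted p = 0.132 to 0.374). Less muscle, less fibroblast and meninges signal and fewer arrays cannot be told apart in that setting. The call of Myrip held without any single array, while that of Ica1 ended without WT cord 1, 2 or 3 or dKO cord 2, 3 or 4, that of Rph3a without WT cord 1 or 2 or dKO cord 1, 2 or 3, that of Rab11fip5 without WT cord 1 or dKO cord 2, 3 or 4, and that of Tbc1d24 without WT cord 3 or dKO cord 2 or 4. With no floor the calls of Ica1 (-0.33), Rph3a (-0.26) and Tbc1d24 (-0.25) ended. The call of Ica1 also ended with the floor at the 75th percentile (-0.22), that of Tbc1d24 with the mean over probe sets (-0.17), and those of Rph3a and Tbc1d24 with the cord arrays fitted alone (adjusted p = 0.0747 and 0.0526). None of the 5 was called in the difference between the tissues (lowest adjusted p = 0.408).

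Single probe sets of the Rab genes were tested on the exon index, with 547 probe sets of 48 Rab genes. In brain none was called, where 0.15% of all probe sets were called, and 17 had an unadjusted p under 0.05 (3.3% of all probe sets). In cord 3 of 547 were called, all higher in dKO, which is 0.548% against 0.388% of all probe sets called and 0.235% called higher. They belong to Rab12, Rab10 and Rab37. In the difference between tissues none was called (0.000518% of all probe sets), and 37 had an unadjusted p under 0.05 (5.67% of all probe sets).

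Rab10, which carries membrane to the surface of axons and dendrites, had its probe set 5065171 called in cord. The exon index of this probe set was -2.40, -2.01, -2.21 and -1.91 on the dKO cord arrays, against -3.86, -2.71, -3.23 and -2.89 on the WT cord arrays. The groups were separated, with WT cord 1 far below the rest. The exon index rose by 1.04 in cord (SE 0.187, limma adjusted p = 0.0229), and the probe set itself changed by 0.95 while the gene changed by -0.09. In brain the exon index was -3.52 to -3.30 in dKO against -3.56 to -3.25 in WT, with overlapping groups. Without WT cord 3 the cord change was 1.02 and not called, and it was not called either without dKO cord 2, 3 or 4, each alone. Nor was it called without the 4 arrays richest in muscle genes (0.67), which leaves fewer arrays. The call also ended with no floor (0.97, adjusted p = 0.0873) and with the cord arrays fitted alone (adjusted p = 0.209).

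Rab37, a Rab of secretory granules, had its probe set 5499139 called in cord. Its exon index was -1.01, -1.28, -0.69 and -1.30 on the dKO cord arrays, against -2.02, -1.44, -1.90 and -1.94 on the WT cord arrays. The groups did not overlap, although WT cord 2 lay close to the dKO arrays. The exon index rose by 0.76 (SE 0.155, limma adjusted p = 0.0464), and this call was lost in 22 of 27 alternative settings. In WT cord the probe set's log2 value was 6.45 to 6.89, near the floor of 6.73.

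**Figure D4:**
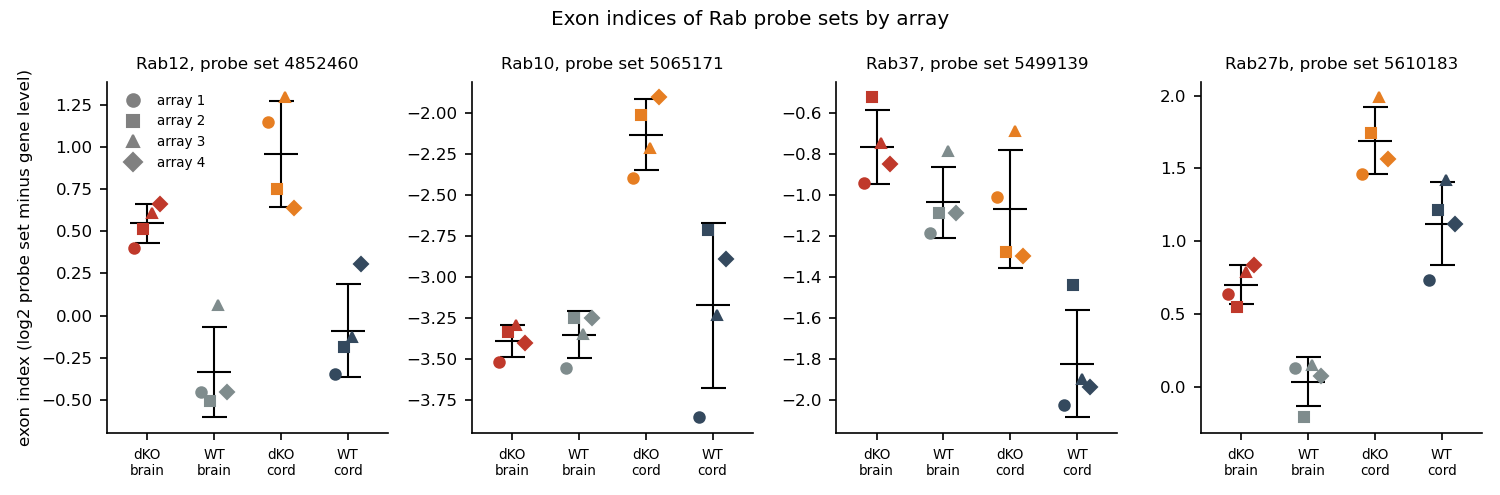
Exon index, the log2 value of the probe set minus its gene's level on the same array, for probe sets of Rab12, Rab10, Rab37 and Rab27b on each array of dKO brain, WT brain, dKO cord and WT cord, with the mean and SD as bars. Rab12 and Rab27b are separated between genotypes in both tissues, and Rab10 and Rab37 in cord, with Rab10 at -2.40 to -1.91 in dKO cord against -3.86 to -2.71 in WT cord.

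Without the knockout, most Rab genes were lower in spinal cord than in brain. Of 50, 31 were called lower in WT cord and 3 higher, 34 in all, where 60.4% of all genes were called, 39.8% lower and 20.6% higher. The median difference was -0.40 over the Rab genes against -0.16 over all genes. Groups were separated for 27 Rab genes, 25 of them lower in cord, where 40.9% of all genes were separated, 26.3% lower and 14.6% higher. Centring each array on its median moved the median over all genes to -0.53, and 47 Rab genes were then called lower and none higher. The split after quantile normalization was 29 lower and 1 higher. The shares of all genes called under these scalings are not given here, so the splits cannot be read as particular to the Rab genes. All 10 skeletal muscle markers were higher in WT cord, with scores of 7.61 to 9.94 in WT cord against 7.01 to 7.21 in WT brain. Of 8 neuron markers 5 were lower and 2 higher in WT cord (median -0.34), and 4 of 7 endothelial and 4 of 7 fibroblast and meninges markers were lower. Higher in WT cord were 5 of 7 astrocyte (median 0.66) and 3 of 6 oligodendrocyte markers. Schwann cell and ganglion markers had 3 higher and 1 lower of 6, microglia markers 2 higher and 1 lower of 9, and 1 of 3 erythroid markers was higher. The part of these marker differences in the result was not tested. Without the 4 muscle-rich cord arrays 26 Rab genes were lower and 2 higher, and the median over the Rab genes was -0.45. The share of all genes called in that fit is not given here either.

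The largest tissue difference among the Rab genes was that of Rab33a, an X-linked Golgi and vesicle Rab of the nervous system. Its level was 8.27, 8.22, 8.33 and 8.17 on the WT cord arrays, against 9.78, 9.80, 9.004 and 9.62 on the WT brain arrays. WT brain 3 was low, and the groups still lay apart. The difference was -1.30 (2.47-fold lower, SE 0.14, limma adjusted p = 1.28e-06). The dKO arrays showed the same order, at 8.07 to 8.48 in dKO cord against 9.43 to 9.62 in dKO brain. Rab9b, another X-linked gene and a late endosome Rab, was 8.35, 8.14, 8.23 and 7.85 in WT cord against 9.03, 9.20, 8.88 and 9.11 in WT brain (-0.91, limma adjusted p = 4.11e-06).

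The genes called lower in WT cord came from every role, where 39.8% of all genes were called lower. Of exocytic Rabs 5 of 12 were called lower, near that share, among them Rab8a (-0.83, adjusted p = 2.43e-05) and Rab13 (-0.81), which serve delivery to the cell surface, Rab8b (-0.62) and Rab10 (-0.54). Of early endosome Rabs 7 of 9 were lower, among them Rab31 (-0.79), Rab5a (-0.87), Rab5c (-0.73) and Rab21 (-0.55). Of recycling Rabs 4 of 5 were lower, Rab35 (-0.76), Rab11b (-0.68), Rab11a (-0.64) and Rab15 (-0.56). Of Golgi and reticulum Rabs 9 of 12 were lower, among them Rab2b (-0.92), Rab33b (-0.72), Rab18 (-0.70) and Rab2a (-0.62). Of late endosome Rabs 4 of 7 were lower, among them Rab39b (-0.61). Of the 2 ligase adaptors Rab40c was lower (-0.57), and of the 3 ciliary Rabs Rab28 was lower (-0.34). Rab3a, Rab3b, Rab6 and Rab6b differed by -0.08 to -0.02 between the tissues and were not called.

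The 3 Rab genes called higher in WT cord were Rab37, Rab17 and Rab39. Rab37 was 8.47, 8.33, 8.67 and 8.56 in WT cord against 8.16, 7.96, 8.11 and 8.03 in WT brain, a difference of 0.44 (SE 0.0976, adjusted p = 0.000872 by limma). Rab17 was 7.58 to 7.70 in WT cord against 7.22 to 7.36 in WT brain (0.35, adjusted p = 0.00471). Rab39 was 6.79 to 7.80 in WT cord against 6.58 to 7.03 in WT brain, with overlapping groups (0.48, adjusted p = 0.0133). Under median centring none of the 3 was called higher, and Rab17 differed by -0.025.

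**Figure D5:**
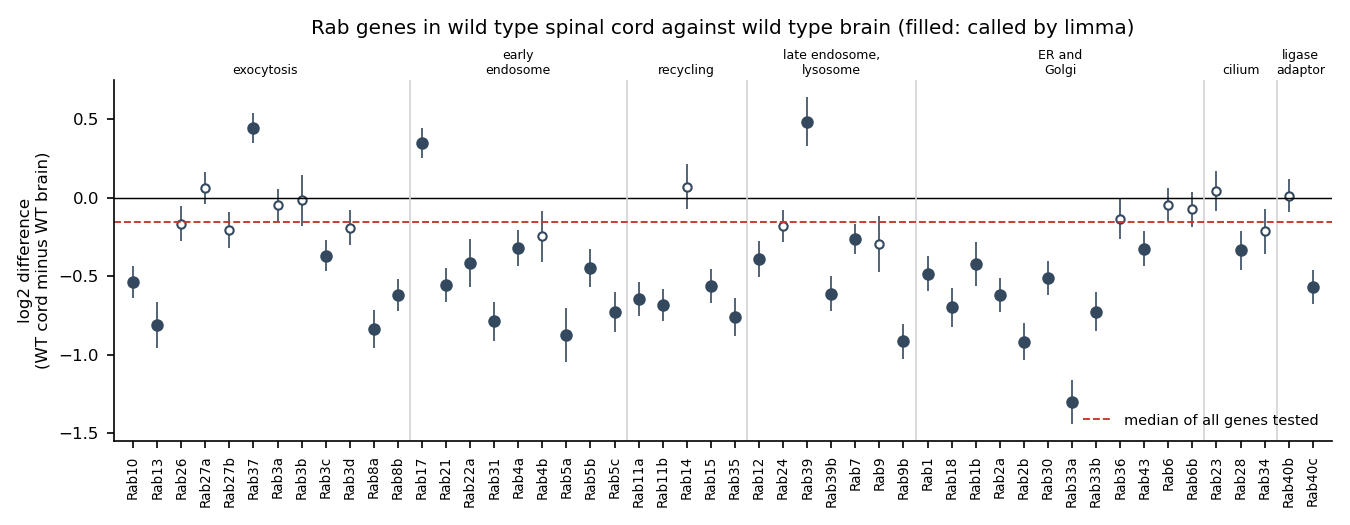
Difference of the 50 Rab genes, as WT cord minus WT brain in log2 units with the standard error, ordered by role; filled points are called by limma and the dashed line is the median over all genes tested, -0.16. Of the filled points 31 lie below 0 and 3 above, with Rab33a lowest at -1.30.

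Of the 547 Rab exon indices, 132 differed between WT cord and WT brain, 81 higher and 51 lower in cord, which is 24.1% against 22% of all probe sets (12.4% higher and 9.59% lower). They came from 46 of the 48 Rab genes. The one with the smallest adjusted p was probe set 5525178 of Rab9b, whose exon index was 1.11 higher in cord (SE 0.115, adjusted p = 3.07e-05 by limma). The probe set itself differed by 0.19 while its gene was lower in cord. Probe set 5325481 of Rab31 was higher by 1.85, with the probe set itself higher by 1.06 against a lower gene. Its mean log2 value in WT brain was 7.02 (SD 0.37), near the floor of 6.73. Probe set 4349514 of Rab3a was higher by 1.00 and 4563674 of Rab43 by 1.06. In WT brain their mean log2 values were 7.45 and 8.71. Median intensities were 99.5 to 116.2 on the cord arrays against 72.3 to 82.9 on the brain arrays. The part of this brightness in the exon index differences of dim probe sets was not tested. Probe set 5610183 of Rab27b, described above for its genotype difference, was 1.08 higher in cord than in brain and was itself higher by 0.88. Of those lower in cord, probe set 5474462 of Rab23 differed by -1.03, 5523598 of Rab7 by -0.67 and 4705164 of Rab3d by -0.63.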

How the data were processed

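The authors deposited 1 linear intensity for each probe set of an Affymetrix mouse exon array. The tools named are Affymetrix Power Tools and PLIER, which merges the probes of a probe set, and the build is mm8, per the submitters' processing notes. Settings and versions of PLIER are not stated there. From the deposited intensities, log2(intensity + 16) was computed here, without further normalization.

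Probe sets with exactly 1 symbol in the platform annotation were used (303629 of 625534), and symbols are printed as annotated there. The floor, 6.73, is the median over all probe sets of their mean log2 value. A gene's level is the median over its probe sets above the floor (at least 3). The exon index needs at least 5. It moves with cassette exons, other transcript starts or ends, and variants under the probes.

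All 16 arrays entered 1 fit of group means in limma 3.58.1, by lmFit and eBayes (R 4.3.3, data.table package version 1.17.8), with the two-sided moderated test adjusted by Benjamini-Hochberg over 14570 genes or 193126 probe sets at 0.05. The number of arrays limits the precision. The method was tested on simulated data with independent noise on each array and set changes in dKO brain alone. That test does not cover deviations shared by arrays. Separated groups are those of 4 arrays with no overlap.

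Same-numbered brain arrays deviated together (correlations of 0.21, 0.41, 0.35 and 0.27), against -0.38 to 0.20 for dKO and WT brain arrays of unlike number. In cord the same-numbered arrays did not (-0.12 to -0.0030). The main fit used no pairs in either tissue, so its brain tests leave the shared deviations out. The array number entered only as a block, in 1 of the alternatives.

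Named genes are Nova1 and Nova2, Rab genes called (up to 20 per comparison) or with a called probe set, up to 10 called probe sets per comparison, up to 3 uncalled Rab genes per role, and up to 4 called genes per Rab cycle list. Rab genes with separated groups, those at an unadjusted p under 0.05 in the tissue difference, Rab3c, probe set 5610183 and the uncalled tissue examples were chosen after their values were seen. The members, lists and alternatives were chosen with earlier results of these data known. Promoter windows are RefSeq's on GRCm38.p6, matched for 44 of 55 Rab genes.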

Additional observations from a re-analysis of the deposited data

Results flagged for a closer look

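In 104 groups of 4 arrays tested, 9 held an array far from the other 3, where chance gives about 1 in 20. On brain arrays, Rab18 was 9.54 on WT brain 3 (others 9.97 to 10.05) and Rab39b was 9.37 on WT brain 3 (others 9.77 to 9.82). The median level over all genes was also lowest on WT brain 3, at 8.37 against 8.45 to 8.59 on the other brain arrays. The part of this array-wide shift in the flags was not tested. Rab27b was 8.06 on WT brain 2 (others 7.83 to 7.85). Rab33a was 9.43 on dKO brain 4 (others 9.60 to 9.62), and Rab33b was 9.57 on dKO brain 1 (others 9.29 to 9.33). The exon index of Rab12 probe set 4852460 was 0.06 on WT brain 3 (0.0616, others -0.51 to -0.45), and without that array its brain change of 1.02 was called (adjusted p = 0.0180).

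On cord arrays, Rab27b was 7.99 on WT cord 1 (others 7.58 to 7.59). The median level over all genes was 8.47 on WT cord 1 against 8.22 to 8.33 on the other cord arrays, and its part was not tested. Rab18 was 9.20 on dKO cord 4 (others 8.90 to 8.94), and Rab8a was 9.24 on dKO cord 3 (others 9.55 to 9.60). Without WT cord 1, Rab27b changed by -0.44 in cord and was still called (adjusted p = 0.0234).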

How the results depend on the processing

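Rab12 was called in both tissues under all 28 alternatives, and no Rab gene or probe set was called in the difference between the tissues under any. For other counts of Rab calls the cause of a change was not tested. The share of all genes or probe sets called also moved, and it is given here only for leaving out 1 array. Counts in the other settings are thus not a result about the Rab genes. Genes called in cord (3) numbered 8 after quantile normalization, 6 with median centring and 5 with the replicate block. They numbered 1 without the 4 muscle-rich cord arrays, a setting with fewer arrays. Leaving out 1 array gave 3 to 6, with 6 without WT brain 3 or WT cord 4, where 2.88% to 8.45% of all genes were called. Probe sets called in cord (3) numbered 6 after quantile normalization, 0 with cord arrays alone and 1 without the muscle-rich arrays, and 1 to 4 with 1 array left out, with 1 without WT cord 3 or dKO cord 2, 3 or 4. With 1 array left out, 0.172% to 0.46% of all probe sets were called in cord. In brain (0) there was 1 with a pseudocount of 64, no floor, the replicate block or no muscle-rich cord arrays, and 2 with the floor at the 75th percentile or the mean over probe sets, with 0 to 2 when 1 array was left out (WT brain 3, WT cord 1 or 4, dKO cord 3 or 4). The share of all probe sets called in brain with 1 array left out was 0.112% to 0.158%. Rab genes called in brain stayed at 1 without any 1 array, where 0.192% to 0.364% of all genes were called. Between WT tissues, genes numbered 28 to 38 and probe sets 100 to 142 (main 34 and 132) with 1 array left out, and probe sets 79 with the floor at the 75th percentile, which tested 360 rather than 547. Between these tissues 51.4% to 64.8% of all genes and 15.4% to 22.2% of all probe sets were called with 1 array left out.

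In WT cord against WT brain, median centring turned Rab14 to -0.30, Rab17 to -0.025, Rab23 to -0.33, Rab27a to -0.31 and Rab40b to -0.36. The floor at the 75th percentile turned Rab23 to -0.60, Rab27b to 0.60 and Rab43 to 0.18, and the mean over probe sets turned Rab23 to -0.37. The replicate block changed no call of the 50 Rab genes in brain, and in cord it added Rab3a and Rab6b, where the numbers did not pair the arrays. It ended the cord calls of Rab12 probe set 4852460 and Rab37 probe set 5499139 and added Rab27b probe set 5610183 (adjusted p = 0.0446). The gene alternatives of the Rab cycle were added after seeing the data. Genes near the floor of 6.73 are those whose changes the signal limits most.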
